A study of Mus musculus with 15 samples.

Results

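A set of 10 genes of mast cells and basophils was chosen by name, as genes known for these lineages, out of the 53379 gene rows of the table, and all of them had a row: Gata2, Kit, Fcer1a, Ms4a2, Cpa3, Mcpt8, Gzmb, Cma1, Srgn and Hdc. Of these 10 genes, 8 reached the filter (10 or more normalized reads in 3 or more libraries), and Fcer1a and Cma1 did not. Cpa3 and Gzmb reached it only through cells lacking Cebpa and Cebpb or derived from such cells. The RNA-seq covered 15 libraries of mouse fetal liver cells transformed by a retrovirus carrying the MLL-ENL fusion oncogene, in 5 groups of 3. All lines descend from Cebpa fl/fl; Cebpb fl/fl embryos and were kept in medium with 10 ng/ml IL-3. WTFL cells are the lines with both floxed genes intact (labelled wild type, with no exogenous gene named), and dKO cells are those in which TAT-Cre removed Cebpa and Cebpb and which carry GFP. The dKO-LAP* cells are dKO cells that carry GFP and LAP*, the rat C/EBPβ protein in its long form, and they were analysed here for clone C1 alone, whereas WTFL and dKO cells were analysed for clones C1 and C2. Each line is 1 clone, and its 3 libraries are RNA isolations at separate times, so p-values measure the spread between isolations of that line and not between mice. The GFP vector and the Cre treatment go with the deletion and cannot be told apart from it. The paper describes the dKO clones as rare survivors of the deletion with high Cebpe. The selection of such clones and their Cebpe level thus cannot be told apart from the deletion either.

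Mast cells and basophils are granulated cells that store histamine and proteases in granules packed around the proteoglycan serglycin, and that release them when antigen crosslinks IgE held by the high-affinity IgE receptor. GATA2 drives the early programme of both lineages. C/EBPα is known to favour the basophil over the mast cell fate, and both lineages grow in response to IL-3, the cytokine in this medium. The cells sequenced here are a bulk culture, in which a gene switched on in a few cells and a gene raised a little in all of them cannot be told apart.

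The labelled deletion was seen in the reads. Cebpa had 1101 ± 292 and 1963 ± 307 normalized reads in WTFL cells of C1 and C2 (SD, n = 3 throughout) and was listed at 0 in all dKO libraries, as was Cebpb, which had 1454 ± 90.7 and 1467 ± 148 in WTFL cells. In dKO-LAP* cells Cebpb had 3106 ± 961, where reads of the rat sequence cannot be told apart from those of the mouse gene. Cebpe was higher in dKO than in WTFL cells, 5.17-fold in C1 and 4.29-fold in C2 (adjusted p = 8.0e-11 and 3.6e-10, limma). It was also 4.44-fold higher in dKO-LAP* than in WTFL cells of C1 (adjusted p = 3.3e-10, limma). A normalized read is a read count divided by the size factor of its library; libraries had 9212237 to 13613500 reads on genes. A gene with at most 3 reads in each library of a group is described as lying at the floor, 3 reads being 0.22 to 0.326 RPM of the reads on genes here, and a fold against a group with no read at all is a lower bound computed against the highest floor of its libraries. Where such a group had 1 read or more in sum, for the 10 genes the ratio of the pooled reads is given with its counting interval. Floors and counting intervals cover counting error only, whereas the 95% intervals of log2 fold changes come from the spread between libraries (limma). The myeloid nature of the cells was checked with 10 myeloid genes, all of which reached the filter, and 12 NK and T cell genes, none of which did.

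Of the 10 genes, 4, Cpa3, Gata2, Kit and Hdc, were called higher in dKO cells of both clones. Over all genes tested, 17.1% were called higher in C1 and 17.4% in C2, and the share called higher in both was not counted. The RefSeq promoter windows of these 4 genes (250 bases before to 50 bases after the annotated start, build GRCm38.p6, 5′ to 3′ on the strand of the gene) are given to show the DNA that lies at the starts of the genes that rose. Capitals mark matches, on either strand, to AGATAA (bound by GATA factors), TTGCNNAA (C/EBP) or TGTGGT (RUNX).
Cpa3, chr3:20242132-20242431, minus strand: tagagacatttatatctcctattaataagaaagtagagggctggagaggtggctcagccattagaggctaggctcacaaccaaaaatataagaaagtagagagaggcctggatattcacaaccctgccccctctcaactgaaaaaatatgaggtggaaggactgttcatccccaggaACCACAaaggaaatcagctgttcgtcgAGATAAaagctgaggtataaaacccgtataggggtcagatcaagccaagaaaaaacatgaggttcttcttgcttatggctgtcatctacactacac
Gata2, chr6:88193641-88193940, plus strand: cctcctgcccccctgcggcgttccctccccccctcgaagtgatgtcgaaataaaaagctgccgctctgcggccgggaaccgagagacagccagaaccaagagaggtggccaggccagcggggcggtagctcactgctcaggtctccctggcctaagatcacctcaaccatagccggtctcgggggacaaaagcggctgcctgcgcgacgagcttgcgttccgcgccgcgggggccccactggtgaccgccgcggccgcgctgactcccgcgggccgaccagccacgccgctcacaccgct
Kit, chr5:75574737-75575036, plus strand: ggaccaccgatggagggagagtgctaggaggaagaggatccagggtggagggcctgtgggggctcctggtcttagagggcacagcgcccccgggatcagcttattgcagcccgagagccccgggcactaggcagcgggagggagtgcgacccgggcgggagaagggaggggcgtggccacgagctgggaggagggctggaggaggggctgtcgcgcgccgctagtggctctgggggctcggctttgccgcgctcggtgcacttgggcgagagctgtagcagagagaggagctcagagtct
Hdc, chr2:126618629-126618928, minus strand: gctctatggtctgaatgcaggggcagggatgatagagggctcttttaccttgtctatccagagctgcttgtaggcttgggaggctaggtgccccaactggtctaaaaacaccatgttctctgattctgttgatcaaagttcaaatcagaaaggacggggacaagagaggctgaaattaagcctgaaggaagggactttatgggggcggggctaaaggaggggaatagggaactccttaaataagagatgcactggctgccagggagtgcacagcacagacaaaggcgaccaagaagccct
The Cpa3 window holds AGATAA at -46 and TGTGGT, read on the other strand, at -73, with the start counted as 0. The windows of Gata2, Kit and Hdc hold none of the 3 words. The RefSeq start of Hdc lies inside the gene as GENCODE vM21 draws it. Among the first windows of all 10 genes, 3 hold AGATAA (Cpa3, Fcer1a and Ms4a2, the last of these at -224, -37 and -11), 1 holds TTGCNNAA (Fcer1a) and 5 hold TGTGGT. Of all 32817 windows in the table, 11.2% hold AGATAA, 10.8% TTGCNNAA and 16.8% TGTGGT. A word in a window is a description of its letters and not a binding site.

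In clone C1, 7 of the 8 genes tested were called higher in dKO than in WTFL cells and none lower, against 17.1% of all 12673 genes tested called higher and 19.9% called lower (limma, Benjamini-Hochberg adjusted p under 0.05). In clone C2, 4 were higher and 1 lower, against 17.4% and 20.1% of all genes. Libraries of dKO cells lay wholly above those of WTFL cells for 21.7% of all genes tested in C1 and 23.7% in C2, and wholly below for 23.5% and 27.8%, which is the background for each gene described as not overlapping. The counts of the 8 are a description, because Cpa3 and Gzmb could enter the test only by being high in cells without both genes. Quantile normalization gave 7 higher in C1 as well, although it moved the share of higher genes among all calls there from 46.3% to 56.6%.

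**Figure D1:**
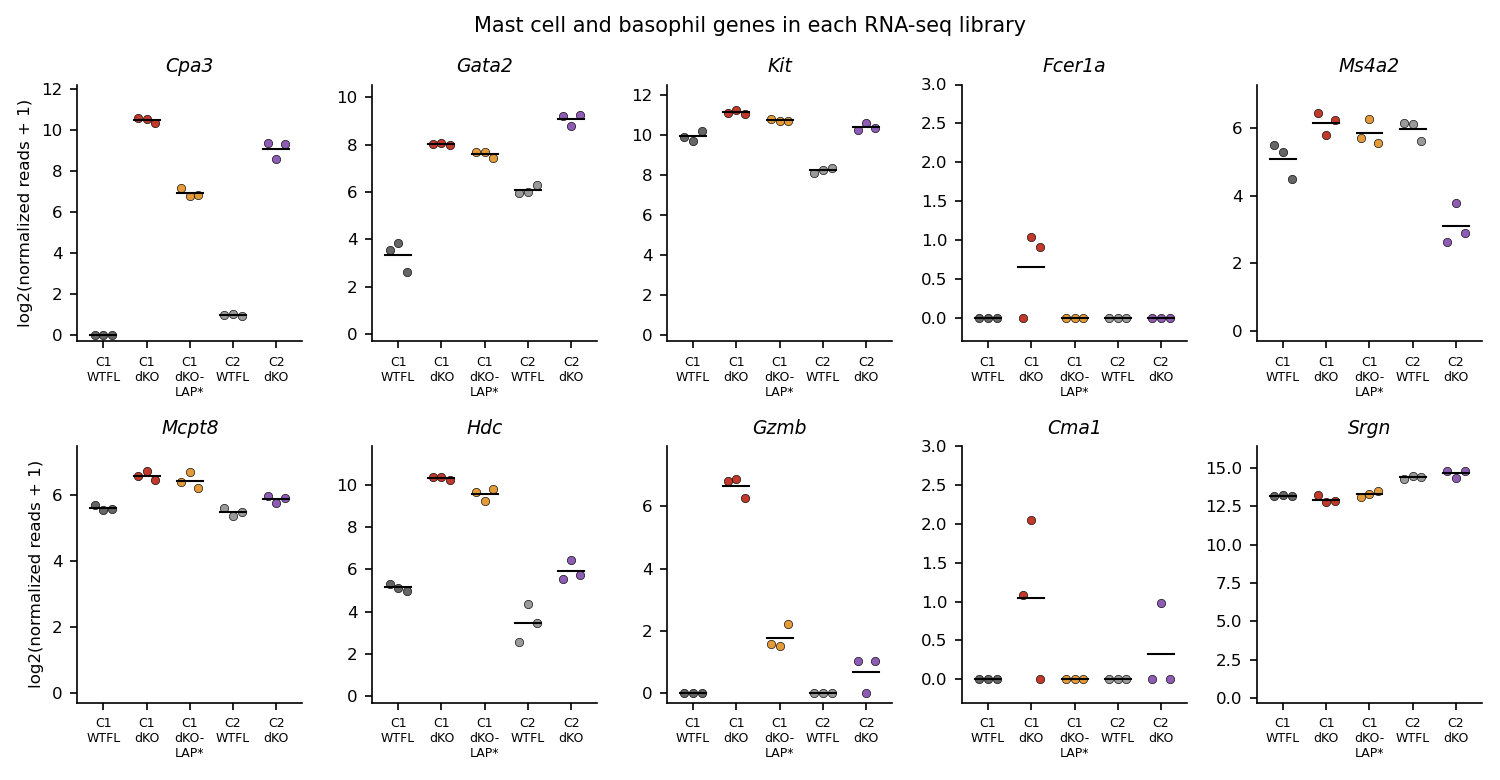
Each point is 1 RNA-seq library, on the y axis as log2(normalized reads + 1), with a panel per gene, columns for the 5 groups (C1 WTFL, C1 dKO, C1 dKO-LAP*, C2 WTFL, C2 dKO) and a bar at the mean of 3 libraries. Cpa3 goes from at most 1 read per library in WTFL cells to 385 to 1546 normalized reads in dKO cells, while Fcer1a and Cma1 stay at or under 3 reads in every library.

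Gata2 (chromosome 6, 88193891 to 88207032, mm10), the GATA factor of early mast cells, basophils and stem cells, was low in WTFL cells and rose in dKO cells of both clones. In C1 it had 10.7, 13.5 and 5.09 normalized reads in the WTFL libraries and 259, 270 and 252 in the dKO libraries. The groups lay far apart, with a mean 26.6-fold higher in dKO cells (log2 fold change 4.69, SE 0.24, adjusted p = 8.1e-10, limma). In C2 it had 61.7, 62.9 and 77.9 in WTFL and 597, 439 and 609 in dKO libraries, 8.13-fold higher (log2 fold change 3.00, adjusted p = 1.4e-07, limma). Every WTFL library of C2 was thus above those of C1, and the gain in C2 was smaller on the log2 scale by 1.69 (SE 0.34, adjusted p = 0.0015, limma), although C2 dKO cells held the highest level of the 5 groups.

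Kit (chromosome 5, 75574916 to 75656722), the receptor of stem cell factor on which mast cells depend, was expressed in every library and rose in dKO cells of both clones. WTFL libraries of C1 had 967, 841 and 1188 normalized reads, and dKO libraries had 2236, 2426 and 2143, a 2.27-fold difference (log2 fold change 1.20, SE 0.12, adjusted p = 8.0e-07, limma). WTFL libraries of C2 had 278, 310 and 332 and dKO libraries 1236, 1576 and 1317, a 4.49-fold difference (log2 fold change 2.16, adjusted p = 1.1e-09, limma). Kit was the gene of the 8 with an effect called higher in C2, by 0.96 on the log2 scale (SE 0.16, adjusted p = 0.00038, limma), and its C2 dKO level lay between those of C1 WTFL and C1 dKO cells.

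The genes of the IgE receptor were not all detected. Fcer1a (chromosome 1, 173221284 to 173227214), the subunit that binds IgE, had 1 read in each of 2 C1 dKO libraries and was listed at 0 in the other 13, so a level above the floor was not detectable at this depth. Ms4a2 (chromosome 19, 11615523 to 11623719), the β subunit that amplifies the signal, was expressed in WTFL cells and moved in opposite directions in the clones. C1 WTFL libraries had 44.2, 37.9 and 21.4 normalized reads and dKO libraries 84.9, 54.5 and 74.1, which did not overlap (log2 fold change 1.06, SE 0.33, adjusted p = 0.019, limma). This rise was not called when WTFL replicate 3 (adjusted p = 0.085, limma), dKO replicate 1 (0.071) or dKO replicate 3 (0.055) was left out. C2 WTFL libraries had 69.7, 68.2 and 47.6 and dKO libraries 5.23, 12.6 and 6.44, so every dKO library lay below every WTFL library, and the mean was 7.63-fold lower (log2 fold change -2.85, adjusted p = 5.9e-06, limma). The effects differed by -3.91 on the log2 scale (C2 minus C1, SE 0.46, adjusted p = 1.6e-05, limma).

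Cpa3 (chromosome 3, 20215620 to 20242181), the carboxypeptidase of mast cell granules, lay at the floor in WTFL cells and rose in dKO cells of both clones. No C1 WTFL library had a read, and the dKO libraries had 1546, 1522 and 1297 normalized reads, at least 362-fold higher (adjusted p = 1.2e-14, limma). Each C2 WTFL library had 1 read, and the dKO libraries had 667, 385 and 652 normalized reads. Over the pooled libraries of C2 the ratio was 572, with a counting interval from 195 to 2777 that reflects the 3 WTFL reads (adjusted p = 3.1e-13, limma). The fitted log2 fold change in C2 was 8.12 and ran from 6.54 to 9.18 over the other settings, so it depends on the value added to the reads, and the bound in C1 and the ratio in C2 cannot be set against each other. The dKO levels of C1 were all above those of C2. The fitted difference of the effects, -2.39 on the log2 scale (SE 0.30, adjusted p = 2.4e-05, limma), includes the step from 0 to 1 read between the WTFL groups and was not called by edgeR (adjusted p = 0.12).

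The other granule proteases differed from each other in level and change. Mcpt8 (chromosome 14, 56082166 to 56085273), a protease known from basophils, was expressed in every library: 50.8, 45.1 and 46.9 normalized reads in C1 WTFL against 92.9, 105 and 85.6 in dKO libraries (1.98-fold, log2 fold change 0.97, SE 0.16, adjusted p = 0.00021, limma). In C2 it had 47.8, 39.8 and 44.0 in WTFL and 60.7, 52.5 and 59.0 in dKO libraries, which did not overlap but were not called (log2 fold change 0.38, 95% interval 0.03 to 0.73, adjusted p = 0.081, limma, and 0.023 under quantile normalization). Gzmb (chromosome 14, 56258838 to 56262260), granzyme B, known best from cytotoxic lymphocytes and also made by mast cells, had no read in any WTFL library of either clone. It had 112, 116 and 76.8 normalized reads in C1 dKO libraries, at least 25.4-fold higher than in WTFL (adjusted p = 2.9e-09, limma), and 1, 0 and 1 reads in the C2 dKO libraries, which lay at the floor. The difference between the clones was -5.96 on the log2 scale (SE 0.55, adjusted p = 1.3e-06, limma), but edgeR did not call it (adjusted p = 1). The 12 NK and T cell genes listed all lay at the floor in C1 dKO libraries, with a summed level of 1.13 to 3.15 normalized reads, so the C1 dKO cells had Gzmb reads without reads of Cd3e, Cd8a or Ncr1 above the floor. Tcrg-C1, a T cell receptor gamma constant gene outside this list, had 62.4 normalized reads in C1 dKO cells. Cma1 (chromosome 14, 55941451 to 55944675), the mast cell chymase, had 1, 3 and 0 reads in C1 dKO libraries, 1 read in 1 C2 dKO library and none elsewhere, and no fold was computed.

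Cma1, Mcpt8 and Gzmb belong to a single cluster of related protease genes on chromosome 14, which spans 318 kb from the start of Cma1 to that of Gzmb, with Mcpt8 141 kb and Ctsg, cathepsin G of neutrophils and their precursors, 158 kb from the start of Cma1. Ctsg was by far the most abundant gene of the cluster, with 12483 normalized reads on average in C1 WTFL, 11811 in C1 dKO, 24679 in C2 WTFL and 9356 in C2 dKO cells. It was lower in C2 dKO cells (log2 fold change -1.41 with adjusted p = 4.1e-06, limma), where its neighbour Mcpt8 was not called, and gave a log2 fold change of -0.06 in C1 (adjusted p = 0.79, limma), where Mcpt8 rose. Gzme, a granzyme gene of the cluster that did not reach the filter and was not tested, went the other way from Gzmb. It had means of 10.9 normalized reads in C1 WTFL and 4.29 in C2 WTFL cells and lay at the floor in dKO and dKO-LAP* cells. The mast cell proteases Mcpt1, Mcpt2, Mcpt4, Mcpt9 and Cma2 were listed at 0 in all 15 libraries. These genes are near copies of each other in parts, and how reads that match several were counted is not given in the sources used here.

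**Figure D2:**
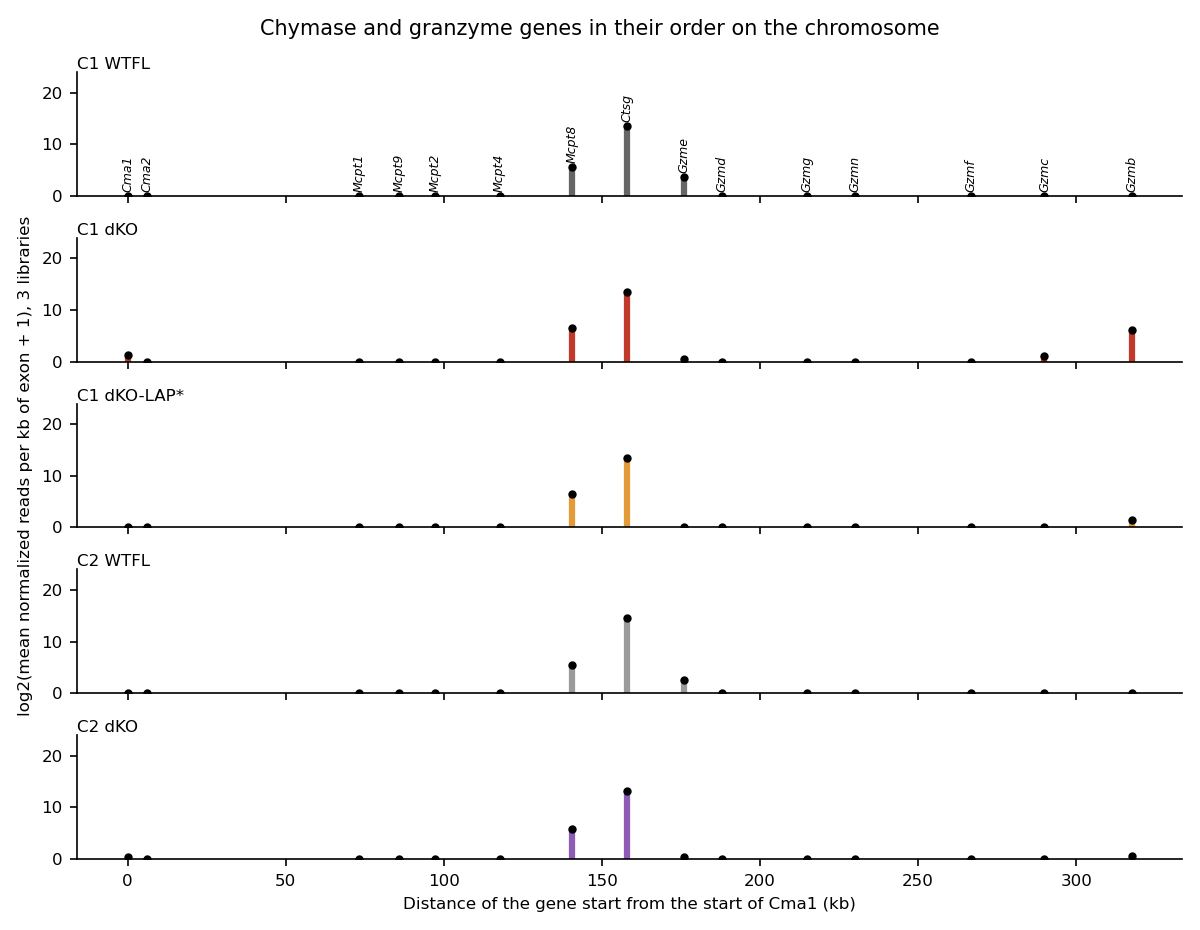
Each stem is 1 chymase or granzyme gene at its distance in kb from the start of Cma1 (x axis), with log2(mean normalized reads per kb of exon + 1) of 3 libraries on the y axis and a panel for each of the 5 groups. Mcpt8 and Ctsg stand in all 5 panels, and Gzmb, 318 kb away, stands high in the C1 dKO panel.

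Srgn (chromosome 10, 62493833 to 62527451), serglycin, the proteoglycan that binds granule proteases in many blood cells, was the highest of the 10 genes per kb of exon in all 5 groups and was not called in either clone. C1 WTFL libraries had 9383, 9593 and 9041 normalized reads and dKO libraries 9606, 6999 and 7268, so the groups overlapped (log2 fold change -0.25, 95% interval -0.54 to 0.05, adjusted p = 0.18, limma). It was called lower in C1 without dKO replicate 1 (log2 fold change -0.39, adjusted p = 0.038, limma). C2 WTFL libraries had 19666, 22792 and 22115 and dKO libraries 29212, 20986 and 28151, again with overlap (log2 fold change 0.27, 95% interval -0.03 to 0.56, adjusted p = 0.14, limma), and it was called higher there without dKO replicate 2 (log2 fold change 0.42, adjusted p = 0.024, limma).

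Hdc (chromosome 2, 126593667 to 126619299), histidine decarboxylase, the enzyme that makes histamine, rose in both clones and far more in C1. C1 WTFL libraries had 38.8, 34.3 and 30.6 normalized reads and dKO libraries 1318, 1305 and 1184, a 36.7-fold difference (log2 fold change 5.16, SE 0.33, adjusted p = 9.2e-09, limma). C2 WTFL libraries had 4.98, 19.9 and 10.1 and dKO libraries 45.0, 85.5 and 52.6, a 5.23-fold difference (log2 fold change 2.42, adjusted p = 3.7e-05, limma). All dKO libraries lay above all WTFL libraries of their clone, and the rise was smaller in C2 by 2.74 on the log2 scale (SE 0.47, adjusted p = 0.00043, limma).

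Over the 8 genes, the effect of the deletion was called different between the clones for 6: lower in C2 for Cpa3, Gata2, Ms4a2, Hdc and Gzmb and higher for Kit, against 14.3% of all genes called lower and 15.1% called higher. Mcpt8 (log2 difference -0.59, adjusted p = 0.068, limma) and Srgn (0.51, adjusted p = 0.060, limma) were not called. The WTFL lines themselves differed. Gata2 (6.91-fold), Srgn (2.30-fold), Ms4a2 and Cpa3 were called higher and Kit (3.26-fold) and Hdc (2.96-fold) lower in C2 than in C1, against 19.7% and 21.3% of all genes. The Cpa3 call sets 1 read in each library against 0, and both groups lie at the floor, so no fold is given and nothing is read from it; it was lost under 3 of the 8 other settings, a pseudocount of 5 (adjusted p = 0.29, limma), edgeR (0.22) and DESeq2 (0.20). The Ms4a2 call (log2 fold change 0.87, adjusted p = 0.046, limma) was also lost under 3 of the 8 other settings, a pseudocount of 0.1, no filter and a fit of the compared groups only, with adjusted p up to 0.075 (limma). It was lost as well in 4 of the 6 fits that left out a library, those without C1 WTFL replicate 2 or 3 or C2 WTFL replicate 1 or 2, with adjusted p up to 0.21 (limma). These comparisons share the WTFL libraries, and with 1 clone from each of 2 mice a clone, its mouse and its culture cannot be told apart.

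Complementation with LAP* was compared with dKO cells of C1. Of the 8 genes, 2 were called lower in dKO-LAP* cells, Cpa3 and Gzmb, and none higher, against 3.03% of all genes called lower and 1.43% called higher. This count is a description, because Cpa3 and Gzmb reached the filter only through cells without both genes or derived from them, Gzmb through the C1 dKO libraries alone. Cpa3 had 144, 109 and 115 normalized reads in dKO-LAP* libraries, 11.9-fold below dKO cells (log2 fold change -3.56, SE 0.21, adjusted p = 9.3e-08, limma) and still at least 30.6-fold above WTFL cells, which had no read. Gzmb had 2.03, 1.84 and 3.65 normalized reads in dKO-LAP* libraries, 8 reads over the 3 libraries against 297 in dKO cells. That is a pooled ratio of 39.6 with a counting interval from 19.8 to 92.5 (log2 fold change -4.89, SE 0.39, adjusted p = 2.8e-06, limma).

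For the other genes that had risen in C1 dKO cells, LAP* gave no call. Gata2 had 207, 207 and 174 normalized reads in dKO-LAP* libraries, below all 3 dKO libraries but not called (log2 fold change -0.41, 95% interval -0.92 to 0.11, adjusted p = 0.40, limma). Kit had 1777, 1698 and 1665, again below all dKO libraries (log2 fold change -0.40, 95% interval -0.65 to -0.16, adjusted p = 0.061, limma). It was called under 3 of the 8 other settings, quantile normalization (adjusted p = 0.049, limma), a fit of the compared groups only (0.030) and DESeq2 (0.022). Hdc had 796, 600 and 903, also below all dKO libraries (log2 fold change -0.75, 95% interval -1.46 to -0.03, adjusted p = 0.25, limma), and was called by edgeR (adjusted p = 0.034) and DESeq2 (adjusted p = 0.0043). Gata2, Kit and Hdc thus did not overlap between the groups, without passing the main test, and dKO-LAP* libraries lay wholly below dKO libraries for 13.7% of all genes tested and wholly above them for 10.4%.

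Ms4a2 (50.8, 75.6 and 45.6 normalized reads) and Mcpt8 (83.3, 102 and 72.0) overlapped with dKO cells (adjusted p = 0.67 and 0.71, limma). Srgn had 8973, 10192 and 11640 (log2 fold change 0.37, 95% interval 0.08 to 0.67, adjusted p = 0.15, limma), and Fcer1a and Cma1 had no read. Against WTFL cells, dKO-LAP* cells were called higher for 6 of the 8 genes and lower for none, against 14.2% and 18.3% of all genes. The 6 were Cpa3, Gata2 (20.1-fold), Hdc (22.2-fold), Kit (1.72-fold), Mcpt8 (1.80-fold) and Gzmb, whose dKO-LAP* mean lies under the floor of WTFL cells, so that no fold is given. These comparisons share the dKO or WTFL libraries with the deletion comparison. Quantile normalization moved the share of higher genes among all calls from 43.6% to 56.9% in the comparison with WTFL cells.

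**Figure D3:**
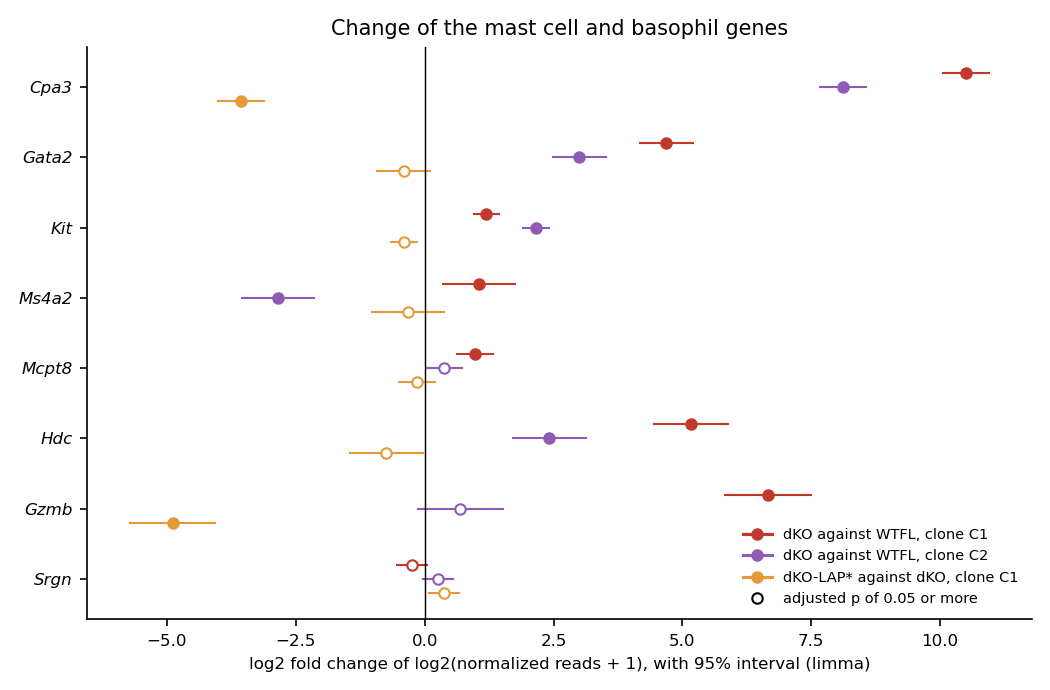
Points are log2 fold changes of the 8 genes tested, on the scale of log2(normalized reads + 1), with 95% intervals from limma (x axis), for dKO against WTFL cells of C1 and C2 and for dKO-LAP* against dKO cells of C1; open points have an adjusted p of 0.05 or more. Cpa3 (-3.56) and Gzmb (-4.89) are the filled points on the left for dKO-LAP* cells, Ms4a2 falls on opposite sides of 0 in the clones, and fitted values of Cpa3 and Gzmb against WTFL cells depend on the value of 1 added to the reads.

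Levels were ordered between the genes as mean normalized reads per kb of exon. In C1 WTFL cells the order was Srgn at 4253 per kb, Kit at 112, Mcpt8 at 47.7, Ms4a2 at 12.3, Hdc at 5.41 and Gata2 at 1.81, with the other 4 at 0. In C1 dKO cells Cpa3 came after Srgn at 959 per kb, followed by Kit at 255, Hdc at 199, Mcpt8 at 94.6, Gzmb at 70.9, Gata2 at 48.2 and Ms4a2 at 25.3. In dKO-LAP* cells Cpa3 stood after Mcpt8, but their levels of 80.8 ± 12.5 and 86.1 ± 15.3 per kb did not differ beyond their SDs. In C2 dKO cells Cpa3 was again next to Srgn at 375 per kb, then Kit at 154, Gata2 at 102, Mcpt8 at 57.5, Hdc at 9.55 and Ms4a2 at 2.88. Hdc was thus above Mcpt8 in C1 dKO cells and below it in C2 dKO cells.

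The genes with the pattern most like each of the 8 were found as those with the smallest root mean square difference in log2(normalized reads + 1) over the 5 group means, each gene centred on its own mean. Likeness over 5 points is a description. For Cpa3 the nearest was Epx, eosinophil peroxidase, at a distance of 1.14, ahead of Hmga2 and Ikzf2. For Gata2 it was Adgrg1 at 0.44, then Oaf and Gm35189. For Kit it was Rasgrp4, a Ras activator known from mast cells, at 0.16, then Ltb4r1 and Lpar6. Ms4a2 was nearest to Pwwp2b at 0.32, then Cd28 and Reck, Mcpt8 to Gm10501 at 0.040, then F2rl2 and Gm17586, and Hdc to Kcng2 at 0.49, then Jaml and Slc13a3. Gzmb was nearest to Tcrg-C1, a T cell receptor gamma constant gene, at 0.38, which had 62.4 normalized reads in C1 dKO and 2.91 in dKO-LAP* cells and 0 in the other groups, then Nol4 and Muc6. Tcrg-C1 is not among the 12 NK and T cell genes above. Srgn was nearest to Rimbp3 at 0.075, then Depdc7 and Mterf2.

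Markers of eosinophils and neutrophils were higher in C1 dKO cells, while those of neutrophils went in both directions in C2. Of 9 eosinophil genes, 8 were tested, and all 8 were higher in C1 dKO cells and 7 of 8 were lower once LAP* was added; in C2 dKO cells 6 were higher and 1 lower. Over all genes, 17.1% were higher in C1, 3.03% lower with LAP*, and 17.4% higher and 20.1% lower in C2. Their median log2 fold change was 8.76 in C1 and 2.26 in C2, or 7.16 and 1.50 where floor genes take the value of their bound. In C1 WTFL cells 5 of the 9 had no read and 7 lay at the floor, and in C1 dKO cells 1 lay at the floor. As for Cpa3 and Gzmb, genes at the floor in WTFL cells could enter the test only by being high in other groups, so the counts of eosinophil genes are a description. Their summed level was 136 to 238 normalized reads in C1 WTFL, 9081 to 17648 in C1 dKO, 1147 to 2244 in dKO-LAP*, 22.0 to 32.1 in C2 WTFL and 276 to 385 in C2 dKO libraries. Prg2, major basic protein of eosinophil granules and also known from mast cells and basophils, had no read in C1 WTFL and 8347 ± 2512 normalized reads in C1 dKO cells. Of 11 neutrophil genes, 10 were higher in C1 dKO cells, against 17.1% of all genes, and all 11 lower in dKO-LAP* cells, against 3.03%, with 3 higher and 2 lower in C2, against 17.4% and 20.1% of all genes there. Summed levels of the C2 groups overlapped. Their summed level was 27440 to 35662 normalized reads in C1 WTFL, 95755 to 119390 in C1 dKO and 37719 to 42275 in dKO-LAP* libraries, and 51812 to 94129 in C2 WTFL and 60416 to 94848 in C2 dKO libraries. Of the monocyte and macrophage genes, 8 of 9 were tested, with 7 lower and none higher in C1 dKO cells and 4 lower and 1 higher, Adgre1, in C2, against 19.9% of all genes lower and 17.1% higher in C1 and 20.1% and 17.4% in C2. Their summed level was 29052 to 44130 normalized reads in C1 WTFL, 15655 to 19759 in C1 dKO, 4745 to 8965 in C2 WTFL and 3018 to 4708 in C2 dKO libraries.

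Some markers of stem and progenitor cells were called as well. Of 8 stem and progenitor genes, 4 were tested, with 2 higher and 1 lower in C1 dKO cells, 2 higher and 0 lower in C2 and none called with LAP*, against 17.1% higher and 19.9% lower over all genes in C1 and 17.4% and 20.1% in C2, and 1.43% higher and 3.03% lower with LAP*. Cd34, a surface sialomucin of progenitors and also of mast cells, rose from 5.21 ± 2.08 to 2623 ± 199 normalized reads in C1 (adjusted p = 9.1e-12, limma) and from 1.01 ± 1.05 to 6365 ± 543 in C2 (adjusted p = 3.1e-13, limma). Flt3, a receptor of early progenitors, had no read in C1 WTFL and 62.2 ± 24.8 in C1 dKO cells (adjusted p = 3.9e-09, limma), and it went from 0.31 ± 0.531 to 304 ± 45.7 in C2 (adjusted p = 1.6e-10, limma). Cd34 and Flt3, the 2 genes higher in each clone, reached the filter only through dKO and dKO-LAP* cells. Their calls and the counts of this list are thus a description. Cd34 and Flt3 were not called in dKO-LAP* against dKO cells (log2 fold change 0.15 and 0.31, adjusted p = 0.85 and 0.72, limma). The summed level of the 8 was 1042 to 1345 normalized reads in C1 WTFL, 3425 to 3840 in C1 dKO, 3958 to 4354 in dKO-LAP*, 961 to 994 in C2 WTFL and 7283 to 8200 in C2 dKO libraries.

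Of 11 megakaryocyte and erythroid genes in the table, 4 were tested, with 2 higher and 2 lower in C1 dKO cells, 1 higher and 1 lower in C2 and 1 lower with LAP*. Over all genes, 17.1% were higher and 19.9% lower in C1, 17.4% and 20.1% in C2, and 3.03% lower with LAP*. The summed level of the 11 was 81.6 to 130 normalized reads in C1 WTFL, 244 to 341 in C1 dKO, 86.6 to 104 in dKO-LAP*, 33.9 to 73.4 in C2 WTFL and 126 to 211 in C2 dKO libraries. Itga2b, the integrin CD41 of megakaryocytes and early progenitors, rose from 2.74 ± 1.75 to 213 ± 54.2 normalized reads in C1 (adjusted p = 5.0e-08, limma) and from 15.8 ± 9.17 to 157 ± 41.4 in C2 (adjusted p = 2.3e-05, limma), and it was lower in dKO-LAP* cells at 34.3 ± 10.5 (log2 fold change -2.62, adjusted p = 0.0031, limma). Gp1bb, a platelet glycoprotein gene, was higher in C1 (log2 fold change 3.11, adjusted p = 3.8e-05, limma). This call is a description, because Gp1bb reached the filter only through cells without both genes or derived from them. Vwf, von Willebrand factor, was lower in both clones (adjusted p = 0.011 and 3.7e-05, limma), with a log2 fold change of -1.66 in C1 and dKO libraries at the floor in C2, and Pf4, a platelet chemokine, was lower in C1 (log2 fold change -1.51, adjusted p = 0.020, limma). The part of the changes of these marker lists in those of the mast cell and basophil genes was not tested.

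Most other mast cell genes were under the filter. Of 19 further genes known from mast cells, 13 did not pass the filter and 9 were listed at 0 in all 15 libraries, including the tryptases Tpsab1 and Tpsb2 and the receptors Mrgprb1 and Mrgprb2. Of the 6 tested, 3 were higher and 2 lower in C1 dKO cells and 2 higher and 2 lower in C2 (median log2 fold change 0.45 and -0.01, against -0.01 and -0.03 over all genes). The shares over all genes, for this list and those that follow, were 17.1% higher and 19.9% lower in C1 and 17.4% higher and 20.1% lower in C2. Il1rl1, the receptor of IL-33, had no read in C1 WTFL and 17.5 ± 1.51 normalized reads in C1 dKO cells (adjusted p = 3.0e-07, limma), fell to 2.85 ± 0.922 in dKO-LAP* cells (log2 fold change -2.29, adjusted p = 0.0021, limma) and had no read in C2 cells. Adora3, an adenosine receptor of mast cells, rose from 2.33 ± 1.16 to 52.4 ± 14.8 normalized reads in C1 (adjusted p = 4.8e-07, limma); both C2 groups lay at the floor, so nothing is read from its call there, which is 1 of the 2 higher. Hpgds, the synthase of prostaglandin D2 in mast cells, was lower in C1, from 17.5 ± 4.73 to 3.81 ± 2.82 normalized reads (adjusted p = 0.0013, limma). In C2 it went from 4.50 ± 2.20 to 1.03 ± 0.0529, with the dKO libraries at the floor. Il1rl1 reached the filter only through the C1 dKO libraries, and Adora3 only through C1 dKO and dKO-LAP* libraries. Hpgds reached it only through the C1 WTFL libraries, so the calls of these genes are a description.

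Of 17 further basophil genes, 10 were tested, with 2 higher and 3 lower in C1 dKO cells and 1 higher and 4 lower in C2 (median log2 fold change -0.54 and -0.37). Over all genes, 17.1% were higher and 19.9% lower in C1 and 17.4% and 20.1% in C2, so the counts in C1 lie near the background. Ptger3, a receptor of prostaglandin E2, rose from 1.19 ± 1.36 to 18.5 ± 4.69 normalized reads in C1 (adjusted p = 2.9e-05, limma) and from 2.67 ± 2.09 to 54.5 ± 4.97 in C2 (adjusted p = 4.1e-06, limma). It reached the filter only through dKO and dKO-LAP* cells, so its calls are a description. The chemokine genes Ccl3 and Ccl4, which monocytes and macrophages also express, were lower in dKO cells of both clones, with log2 fold changes of -3.84 and -3.31 in C1 and -2.47 and -3.31 in C2. Il13 and Enpp3 were listed at 0 in all libraries.

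**Figure D4:**
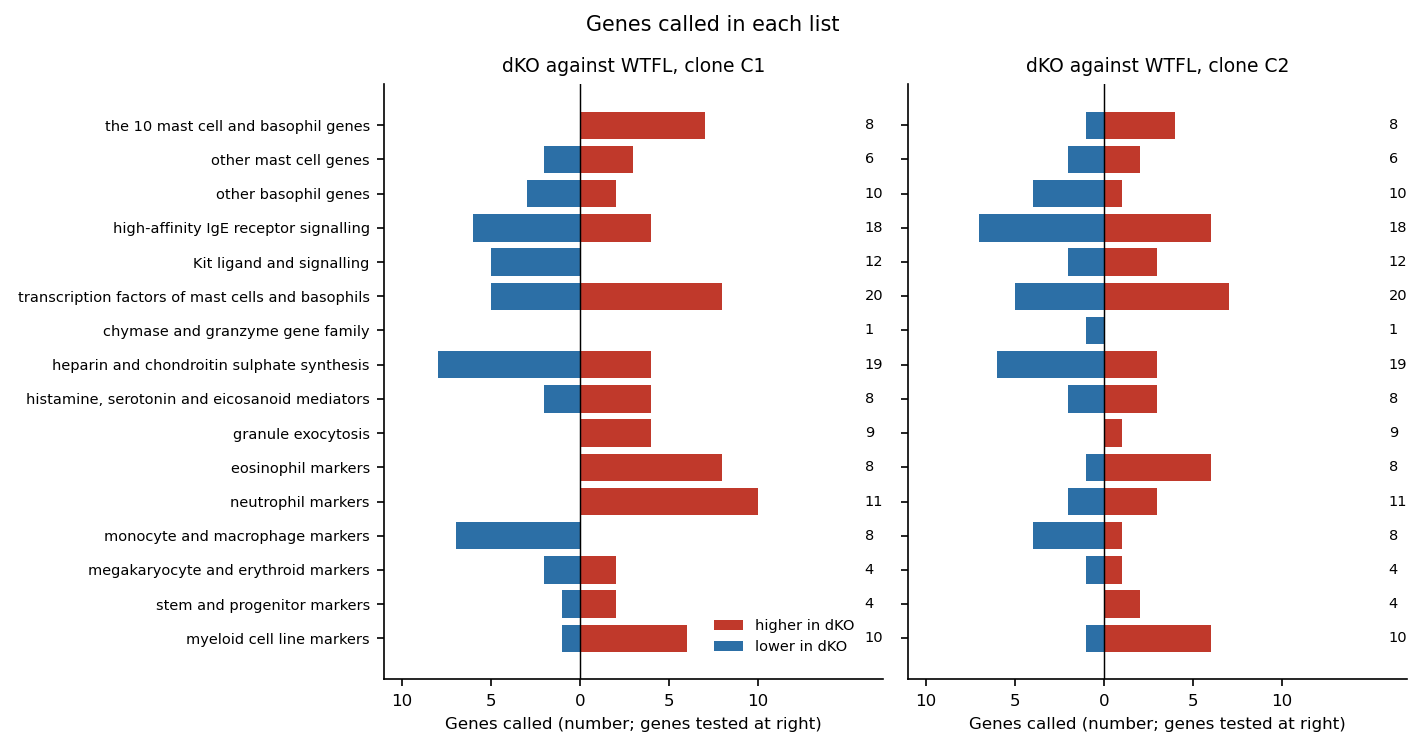
Bars give the number of genes (x axis) called higher (red, to the right) and lower (blue, to the left) in dKO than in WTFL cells, for each gene list with a gene tested, in clones C1 and C2; the number at the right of a row is the number of genes tested. The 10 genes have 7 higher and 0 lower in C1, while the lists of other mast cell and other basophil genes have 3 higher with 2 lower and 2 higher with 3 lower.

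Of 22 further transcription factors known from mast cells and basophils, 20 were tested. In dKO cells 8 were higher and 5 lower in C1, and 7 higher and 5 lower in C2 (median log2 fold change 0.05 and 0.11; 0.05 and 0.06 where floor genes take the value of their bound). Ikzf2, Helios, had no read in WTFL cells and 109 ± 35.4 and 151 ± 28.7 normalized reads in dKO cells of C1 and C2 (adjusted p = 3.7e-11 and 1.7e-11, limma). Gata1, which follows Gata2 in mast cell and eosinophil development, rose from 2.66 ± 1.59 to 28.3 ± 8.53 in C1 and from 0 to 6.93 ± 2.46 in C2 and was lower in dKO-LAP* cells at 5.46 ± 2.35 (log2 fold change -2.20, adjusted p = 0.0072, limma). Gata1 reached the filter only through the C1 dKO libraries, and Ikzf2 only through dKO and dKO-LAP* cells. Their calls and their part in the counts are thus a description. Erg, an ETS factor of stem and progenitor cells, rose from 104 ± 14.8 to 308 ± 23.2 in C1 and from 15.6 ± 7.75 to 355 ± 22.2 in C2. Mitf, a regulator of mast cell genes, was lower in both clones, with a log2 fold change of -1.23 in C1 and -0.96 in C2 (adjusted p = 0.00065 and 0.0044, limma).

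Downstream of the IgE receptor, 18 of 19 signalling genes were tested, and 4 were higher and 6 lower in C1 and 6 higher and 7 lower in C2 dKO cells (median log2 fold change -0.01 and -0.05), against 17.1% higher and 19.9% lower over all genes in C1 and 17.4% and 20.1% in C2. Fcer1g, the γ subunit that the receptor shares with other Fc receptors, was lower in C1 (log2 fold change -0.34, adjusted p = 0.0015, limma) and higher in C2 (0.40, adjusted p = 0.00042, limma). Lcp2, the adaptor SLP-76, was lower in both clones, with log2 fold changes of -0.55 and -0.93, as was Stim1, a calcium sensor, with -0.38 and -0.73. Fyn, a Src family kinase, was lower in C2 (adjusted p = 7.7e-05, limma), where WTFL cells had 38.6 ± 5.67 normalized reads and the dKO libraries lay at the floor. This call is a description, because Fyn reached the filter only through the C2 WTFL libraries.

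Among 14 genes of Kit signalling, 12 were tested, and none was higher and 5 lower in C1, while 3 were higher and 2 lower in C2 (median log2 fold change -0.27 and 0.04). The ligand gene Kitl was listed at 0 in all libraries. Lyn, a kinase near both Kit and the IgE receptor, was lower in both clones (log2 fold change -0.48 and -0.50, adjusted p = 0.00087 and 0.00062, limma). Pik3ca was lower by less (-0.33 and -0.26), and Socs1, a feedback inhibitor, was higher in C2 (1.06, adjusted p = 0.00072, limma).

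The enzymes that build the glycosaminoglycan chains of serglycin changed in both directions, with 4 higher and 8 lower of 19 tested in C1 and 3 higher and 6 lower in C2 (median log2 fold change -0.06 and -0.14). The counts of higher genes lie near the 17.1% and 17.4% of all genes, and the counts of lower genes stand against 19.9% and 20.1%. Xylt1, which adds the first sugar of the chain, rose from 79.7 ± 13.8 to 379 ± 20.3 normalized reads in C1 and from 167 ± 21.7 to 548 ± 5.96 in C2 (adjusted p = 1.6e-09 and 3.7e-08, limma). Xylt2, the other enzyme of that step, was lower in dKO cells of C1 and of C2 (log2 fold change -1.02 and -1.26, adjusted p = 0.00078 and 0.00013, limma), with 171 ± 43.4 normalized reads in C1 WTFL and 82.8 ± 12.1 in C1 dKO cells. Csgalnact1, which starts chondroitin sulphate, rose from 0.34 ± 0.589 to 68.8 ± 22.4 in C1 and from 0.70 ± 1.21 to 12.5 ± 5.26 in C2. It reached the filter only through dKO and dKO-LAP* cells, so its calls are a description. Ext1, which extends heparan chains, was lower in C1, from 20.2 ± 1.24 to 1.08 ± 1.05 (adjusted p = 1.0e-06, limma).

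Beside Hdc, 8 of 11 genes for histamine, serotonin and eicosanoid mediators were tested, with 4 higher and 2 lower in C1 and 3 higher and 2 lower in C2 (median log2 fold change 0.37 and 0.11). Alox5, the 5-lipoxygenase of leukotriene synthesis, rose from 158 ± 54.9 to 1230 ± 58.5 normalized reads in C1 and from 1613 ± 453 to 3029 ± 440 in C2 (adjusted p = 2.2e-08 and 0.0022, limma). Ltc4s, leukotriene C4 synthase, rose from 10.6 ± 5.02 to 72.7 ± 3.75 in C1 (adjusted p = 9.3e-06, limma) and gave a log2 fold change of 0.30 in C2 (adjusted p = 0.52, limma). Among 11 genes of granule exocytosis in the table, 9 were tested, with 4 higher and 0 lower in C1 and 1 higher and 0 lower in C2 (median log2 fold change 0.24 and 0.12). Stx3, a syntaxin of granule fusion, was called in each of the clones: it rose from 13.3 ± 4.75 to 155 ± 15 normalized reads in C1 and from 2.37 ± 1.67 to 71.7 ± 12.1 in C2 (adjusted p = 4.7e-07 and 3.3e-08, limma), and was lower in dKO-LAP* cells at 44.0 ± 1.90.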

How the data were processed

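RNA-seq was analysed in 15 libraries, 3 of each of 5 groups named from the labels. Per the submitters' processing notes, the tools were STAR 2.5.3a, HTSeq 0.10.0 and DESeq2 1.26.0 and the build was mm10, while the annotation is not given in the sources used here. The deposited signal is a normalized read count per gene, which the authors obtained by dividing counts by 1 size factor per library (0.747 to 1.13). Of 53384 rows, 5 name no gene and held 22.4% to 26.2% of reads, and they were left out. A further 3 columns, named for LAPS in C2 and matching no sample, were not used here, so the dKO-LAP* results rest on C1 alone. Whole reads were recovered from the steps of the values, with 100% of the values above 0 within 0.1 of a whole read, and reads on genes had a median of 11885279 per library. Since the deposited values are normalized, limma 3.58.1 (R 4.3.3) was fitted to log2(normalized reads + 1) with a mean for each group, a trended prior and Benjamini-Hochberg adjustment over 12673 genes that reached 10 normalized reads in 3 or more of the 15 libraries, of 24520 with any read, and adjusted p under 0.05 was a call. Pseudocounts of 0.1 and 5, no filter, quantile normalization, a fit of the compared groups only, the replicate number as a block, edgeR 4.0.16 and DESeq2 1.42.0 on the recovered reads, a fold limit (absolute log2 of at least 1) and leaving out each library were the alternatives. The fits were tested on simulated data.

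The genes, the gene lists and the tests were chosen with earlier results of these data known, so counts of members or list genes are descriptions, and no set test was run. All 10 genes are named. From each other list, at most the 3 called genes with the largest mean log2 fold change of dKO against WTFL cells over both clones are named by rule, and for each tested gene the 3 genes most like it. Fcer1g, Mitf, Xylt2, Adgre1 and Pf4 were named beyond this rule, after their values were seen. The same holds for genes without a call that were named for few or no reads, such as Gzme, Kitl, Il13, Tpsab1 and Cd3e. Of the listed symbols, 2 are not in the table, and for 1 symbol with duplicate rows the row with most reads was used. Gene positions and exon lengths are from GENCODE vM21 (mm10), and promoter windows from RefSeq (GRCm38.p6), which had an entry for 10 of the 10 genes. Replicate numbers did not pair the libraries, since correlations of the deviations of same-numbered libraries ran from -0.17 to 0.30 and were not above 0.1 for every pair of any comparison. Python 3.11.15, pandas 2.3.3 and matplotlib 3.10.9 gave the tables and plots.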

Additional observations from a re-analysis of the deposited data

Results flagged for a closer look

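For 6 of the 10 genes the effect of deleting Cebpa and Cebpb differed between the clones by a test of the difference itself (C2 minus C1, log2 scale, limma). Over all genes tested, 15.1% were called higher and 14.3% lower by the same test. The differences were -2.39 for Cpa3 (adjusted p = 2.4e-05), -1.69 for Gata2 (adjusted p = 0.0015), 0.96 for Kit (adjusted p = 0.00038), -3.91 for Ms4a2 (adjusted p = 1.6e-05), -2.74 for Hdc (adjusted p = 0.00043) and -5.96 for Gzmb (adjusted p = 1.3e-06). Those of Cpa3 and Gzmb rest on WTFL libraries with at most 1 read and were not called by edgeR. Ms4a2 was the gene called in opposite directions, with 3 of 3 C1 dKO libraries above and 3 of 3 C2 dKO libraries below the WTFL libraries of their clone. Groups of 3 libraries were not tested for single libraries that stand apart.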

How the results depend on the processing

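No gene changed direction under any alternative that was run. Of 720 values of single genes under an alternative, 693 kept their direction and their side of the threshold, 12 passed it newly and 15 lost it. Counts that moved by more than 1.5 times were few. For the difference of the dKO effects, DESeq2 called 2 genes higher instead of 1 (Srgn joined Kit) and requiring a change of 1 or more on the log2 scale left 0, while edgeR called 3 lower instead of 5, without Cpa3 and Gzmb. For dKO-LAP* against dKO cells, DESeq2 called 4 genes lower instead of 2, with Kit and Hdc added. For WTFL cells of C2 against C1, the same requirement left 2 higher instead of 4. Leaving out each library in turn gave 0 to 1 genes lower in C1 dKO cells and 1 to 2 genes higher in the difference between the clones. In the first case Srgn was added without C1 dKO replicate 1, and in the second without C1 dKO replicate 1 or C2 dKO replicate 2. With the replicate block, 7 genes were higher in C1 and 4 higher and 1 lower in C2, as without it, and the block changed no count by more than 1.5 times. Depth limits Fcer1a, Cma1 and, in WTFL cells, Cpa3 and Gzmb, where 3 reads or fewer per library give no fold between the WTFL lines. The cause of these changes was not tested.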
